A study of Gallus gallus with 40 samples.

Results

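The thrombocyte genes described here are GP9, ITGA2B, ITGB3, P2RX1 and F13A1, chosen by the gene names in the annotation deposited with the values, and they are 5 of 26152 genes measured. All 5 passed the filter on low values. Their levels were measured in the chorioallantoic membrane, the vascularised membrane under the eggshell through which the chicken embryo exchanges gas, takes up shell calcium and handles allantoic fluid. The 40 libraries came from 40 embryos of the Ross 308 broiler, a meat chicken, in 4 groups of 10: males at day 15 of incubation, females at day 15, males at day 11 and females at day 11. All groups shared the same line and handling: eggs were held cool before incubation, embryos were sexed by a molecular test on neck tissue, and membranes were rinsed, frozen and extracted whole. RNA levels are given as FPKM, fragments normalised to transcript length and library size, and each library is one embryo.

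Thrombocytes are the nucleated blood cells that do in birds what platelets do in mammals: they stick to damaged vessel walls, clump together and help the clot to set. In mammals GP9 is a subunit of the GPIb-IX-V complex, which catches von Willebrand factor, and ITGA2B pairs with ITGB3 to form the integrin that binds fibrinogen. P2RX1 is a cation channel opened by ATP, and F13A1 is the catalytic subunit of factor XIII, the transglutaminase that crosslinks fibrin. ITGB3 also pairs with ITGAV in vessel and other cells, and F13A1 is also made by mammalian macrophages. In whole membranes, fewer thrombocytes and less RNA per thrombocyte cannot be told apart.

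Depth, recovered from the deposited values, was 28.3 to 49.2 M reads per library with a median of 35.4 M. Of 20 listed chorioallantoic membrane markers, 15 were found by name among the genes measured. None of the 15 stayed under 0.1 FPKM in all libraries. The same held for the erythroid, leukocyte and endothelial markers, so this does not set the tissue apart from others. CA2, a carbonic anhydrase of the shell-facing epithelium, averaged 732 FPKM in day 15 males, 709 FPKM in day 15 females, 100.3 FPKM in day 11 males and 115 FPKM in day 11 females. Of the series' libraries, female 83 of day 15 and female 6 of day 11 had the lowest weights when limma estimated a weight for each library (0.372 and 0.283, where 1 is average). Nothing in the labels says which samples were handled together. Embryo numbers were lower at day 11 than at day 15, so they cannot be told apart from the day, and within day 15 0% of tested genes rose and 0% fell with embryo number, against 15.8% and 17.3% within day 11. None of the 5 thrombocyte genes was called in that limma test at either day. GP9 at day 15 (-0.17 ± 0.063 log2 per 10 numbers, SE) and ITGA2B at day 11 (-0.12 ± 0.055) had an unadjusted p under 0.05.

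At day 15, ITGA2B and P2RX1 were higher in male than in female membranes, by 1.66-fold and 1.52-fold. GP9 was 1.61-fold higher without passing the test across all genes, and neither ITGB3 (1.09-fold) nor F13A1 (0.957-fold) passed it. From day 11 to day 15, GP9 and P2RX1 rose in both sexes and F13A1 fell in both. Of the subunits of the fibrinogen receptor, ITGA2B had a called sex difference at day 15 and ITGB3 had none. Differences were tested with limma on log2(scaled FPKM + 0.1), fitted across 15880 genes with Benjamini-Hochberg adjustment at 0.05, and every log2 fold change below is on that scale.

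**Figure D1:**
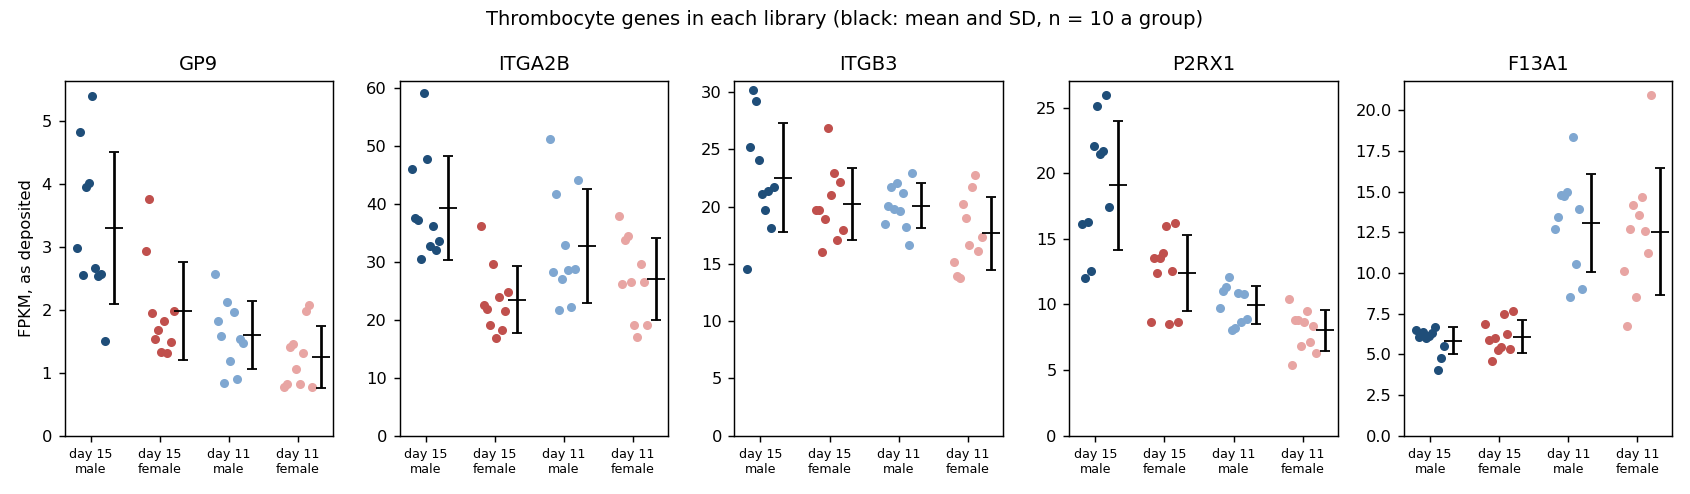
FPKM of the 5 thrombocyte genes (one panel each, vertical axis from 0) in each of the 40 libraries, by day and sex. Points are embryos, and black marks are the mean and SD of 10 embryos. ITGA2B and P2RX1 stand higher in day 15 males than in day 15 females, and F13A1 stands lower at day 15 than at day 11 in both sexes.

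GP9 lies on chromosome 12 at 5515883 to 5519044 of GRCg6a, on the minus strand, with 2 exons (ENSGALG00000005022). It was the lowest of the 5 genes in FPKM, a unit that accounts for transcript length, and had 29 to 275 reads per library. At the median of 80.5 reads, counting error alone is 11.1% of the value. GP9 had a lowest, median and highest value of 1.50, 2.82 and 5.40 FPKM in day 15 males, 1.32, 1.76 and 3.76 FPKM in day 15 females, 0.829, 1.57 and 2.56 FPKM in day 11 males, and 0.772, 1.18 and 2.07 FPKM in day 11 females. At day 15, 9 of 10 males lay above the female median and 4 lay above every female, while the groups overlapped below that. The male minus female difference at day 15 was 0.69 ± 0.22 (log2, SE; limma adjusted p = 0.0868), and at day 11 it was 0.33 ± 0.22 (adjusted p = 0.756). Averaged over the days it was 0.51 ± 0.16 (adjusted p = 0.0472), a call that was lost when any of 26 of the 40 libraries was left out (adjusted p up to 0.0821). The day 15 difference, in turn, was called without female 59 (0.81, adjusted p = 0.0223) or without male 100 (0.80, adjusted p = 0.0229). Each was the extreme of its group, with 3.76 FPKM in the female and 1.50 FPKM in the male. In the other 38 of the 40 fits with a library left out it was not called. Without male 81, the highest of its group at 5.40 FPKM, the limma adjusted p was 0.183.

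GP9 rose with day in both sexes. The day 15 minus day 11 difference was 1.02 ± 0.22 in males (2.02-fold, adjusted p = 0.000219) and 0.66 ± 0.22 in females (1.58-fold, adjusted p = 0.0138), by limma. Of the day 15 males, 7 lay above every day 11 male, and of the day 15 females, 2 lay above every day 11 female. The 4 groups stood in the order day 15 male, day 15 female, day 11 male, day 11 female. The ranges of each neighbouring pair in that order overlapped.

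ITGA2B lies on chromosome 27 at 3941850 to 3960190, on the plus strand (ENSGALG00000054766). It lies inside the span of GPATCH8, at 3911372 to 3976990 on the same strand, but shares 0 exon bases with it. Each library held 1652 to 6830 of its reads. ITGA2B had a lowest, median and highest value of 30.6, 36.7 and 59.1 FPKM in day 15 males, 16.9, 22.2 and 36.2 FPKM in day 15 females, 21.6, 28.7 and 51.3 FPKM in day 11 males, and 17.0, 26.5 and 38.001 FPKM in day 11 females. At day 15, 9 of 10 females lay below the lowest male and 5 males lay above every female. The remaining female, 54, reached 36.2 FPKM. The difference at day 15 was 0.73 ± 0.16 (limma adjusted p = 0.00240). At day 11 the male and female ranges overlapped widely, and the difference was 0.25 ± 0.16 (adjusted p = 0.736).

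The change of ITGA2B with day was not called in either sex. It was 0.32 ± 0.16 in males (adjusted p = 0.106) and -0.16 ± 0.16 in females (adjusted p = 0.439), by limma. All 10 day 15 males lay above the day 11 male median, whereas 2 of 10 day 15 females lay above the day 11 female median. Without male 2 of day 11, the highest of its group at 51.3 FPKM, the difference in males was 0.40 (adjusted p = 0.0362). The other 39 of the 40 fits with a library left out did not call it. Without male 76 of day 15, the highest of its group at 59.1 FPKM, the adjusted p was 0.213. The sex difference at day 15 minus that at day 11 was 0.48 ± 0.23 (unadjusted p = 0.0442), with an adjusted p of 1.00, so the sex difference was not shown to differ between days.

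ITGB3 lies on chromosome 27 at 4721958 to 4738989, on the plus strand, with 15 exons (ENSGALG00000000379), and had 1484 to 4004 reads per library. ITGB3 had a lowest, median and highest value of 14.6, 21.5 and 30.1 FPKM in day 15 males, 16.0, 19.7 and 26.8 FPKM in day 15 females, 16.6, 19.9 and 22.9 FPKM in day 11 males, and 13.7, 17.0 and 22.8 FPKM in day 11 females. All 4 groups overlapped. The male minus female difference was 0.13 ± 0.10 at day 15 (95% interval -0.081 to 0.34, limma adjusted p = 0.804) and 0.19 ± 0.10 at day 11 (95% interval -0.023 to 0.40, adjusted p = 0.632). With 1 library left out the day 15 value ran from 0.080 to 0.20, the latter without male 52. It was not called in any of the 40 fits. Averaged over the sexes, ITGB3 rose by 0.20 ± 0.074 with day (1.15-fold, adjusted p = 0.0183), and neither sex alone passed (males 0.17, adjusted p = 0.178; females 0.23, adjusted p = 0.0700). Leaving out male 52 of day 15, the lowest of its group at 14.6 FPKM, brought the difference to 0.24 in males (adjusted p = 0.0454) and left it at 0.23 in females (adjusted p = 0.0481). The difference in females was also called without female 20, 29 or 39 of day 11 or female 64 or 88 of day 15 (0.26 to 0.27, adjusted p = 0.0329 to 0.0488).

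The ratio of ITGA2B to ITGB3, in FPKM, had a median of 1.68 in day 15 males (1.05 to 3.16), 1.09 in day 15 females (0.805 to 1.84), 1.55 in day 11 males (1.09 to 2.78) and 1.52 in day 11 females (0.781 to 2.50). The day 15 females had the lowest median of the 4 groups, with ranges that overlapped. The male minus female difference of the log2 ratio was 0.61 ± 0.18 at day 15 (SE, two-sided permutation p = 0.00378) and 0.067 ± 0.21 at day 11 (permutation p = 0.747), with 10 embryos a group. These 2 tests were added after the values were seen and restate the differences of ITGA2B and ITGB3 given above, so they are no separate support for them. ITGAV, the other alpha subunit that pairs with ITGB3, averaged 32.5 FPKM in day 15 males and 33.1 FPKM in day 15 females. Its sex difference there was -0.044 ± 0.11 (limma adjusted p = 0.966).

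P2RX1 lies on chromosome 19 at 3462945 to 3470294, on the plus strand, with 13 exons (ENSGALG00000001573), and had 272 to 1330 reads per library. P2RX1 had a lowest, median and highest value of 12.04, 19.5 and 25.99 FPKM in day 15 males, 8.55, 13.02 and 16.2 FPKM in day 15 females, 8.09, 10.3 and 12.1 FPKM in day 11 males, and 5.42, 8.53 and 10.4 FPKM in day 11 females. At day 15, 7 of 10 males lay above every female and 3 females lay below every male. At day 11, 5 males lay above every female and 4 females lay below every male. The male minus female difference was 0.60 ± 0.14 at day 15 (limma adjusted p = 0.00378) and 0.31 ± 0.14 at day 11 (unadjusted p = 0.0307, adjusted p = 0.408). The difference between those differences was 0.29 ± 0.20 and was not called.

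P2RX1 rose with day by 0.93 ± 0.14 in males (1.90-fold, adjusted p = 5.21e-07) and by 0.64 ± 0.14 in females (1.55-fold, adjusted p = 0.000223), by limma. In males 9 of 10 day 15 embryos lay above every day 11 embryo, and in females 7 of 10 did. The groups stood in the order day 15 male, day 15 female, day 11 male, day 11 female, as for GP9. Each neighbouring pair in that order overlapped.

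F13A1 lies on chromosome 2 at 65009436 to 65078561, on the plus strand (ENSGALG00000012802), and had 470 to 2389 reads per library. F13A1 had a lowest, median and highest value of 4.01, 6.12 and 6.66 FPKM in day 15 males, 4.57, 5.97 and 7.66 FPKM in day 15 females, 8.54, 13.7 and 18.4 FPKM in day 11 males, and 6.73, 12.6 and 21.0 FPKM in day 11 females. All 10 day 15 males lay below all 10 day 11 males, a complete separation downward that 7.16% of tested genes showed. Of the day 15 females, 7 of 10 lay below every day 11 female. F13A1 fell by 1.10 ± 0.14 in males (limma adjusted p = 3.41e-08) and fell by 0.96 ± 0.14 in females (adjusted p = 6.32e-07). No sex difference was called: it was -0.064 ± 0.14 at day 15 (95% interval -0.35 to 0.23, adjusted p = 0.958) and 0.078 ± 0.14 at day 11 (95% interval -0.21 to 0.37, adjusted p = 0.967).

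**Figure D2:**
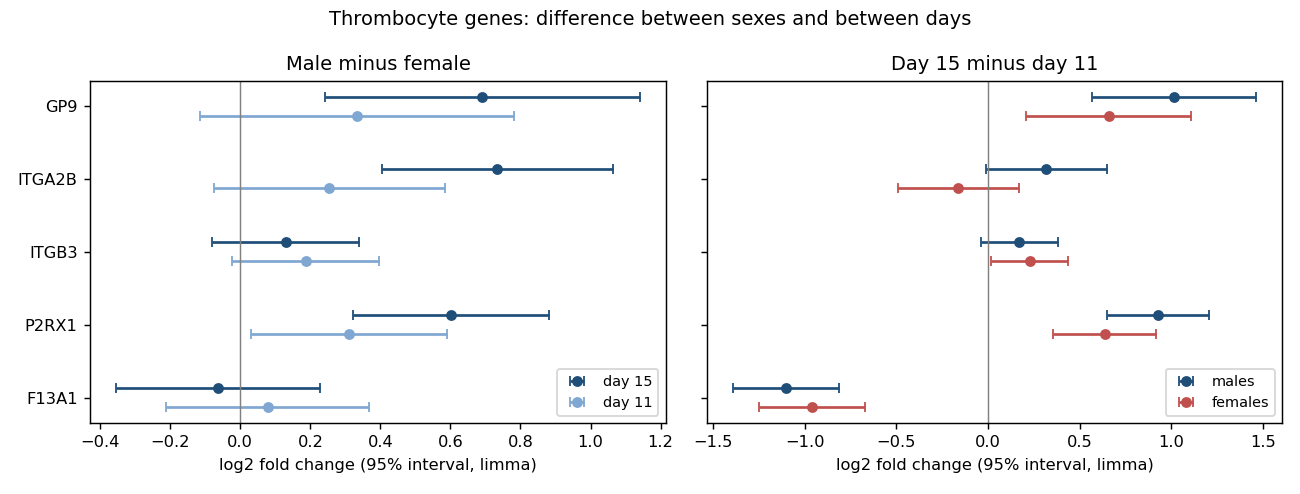
Log2 fold changes of the 5 thrombocyte genes with 95% intervals from limma. The left panel shows male minus female at day 15 and day 11, where ITGA2B (0.73) and P2RX1 (0.60) were called at day 15. The right panel shows day 15 minus day 11 in males and in females, where GP9 and P2RX1 lie above 0 and F13A1 below 0 in both sexes.

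Counted together, 2 of the 5 genes were called higher in males at day 15, where limma called 2.58% of all tested genes higher. Of those 410 genes, 27 are placed outside Z, of which male birds carry a pair and females a single copy, and W, which females alone carry. All 5 thrombocyte genes are autosomal. Among the 14092 tested genes outside Z and W, 0.192% were called higher in males at day 15. By p-value ITGA2B ranked 3 and P2RX1 ranked 5 among those with a positive difference. The 5 genes were chosen with earlier results of these data known, so such counts and ranks are no separate support for the differences. At day 11 limma called 0 of the 5, with 1 at an unadjusted p under 0.05 and 0 by voom on recovered reads, where limma called 2.54% of all tested genes and 0.0852% of those outside Z and W higher. Averaged over days it called 3 of the 5 higher (GP9, ITGA2B and P2RX1), where it called 3.39% of all tested genes and 0.433% of those outside Z and W higher. None of the 5 was called in the sex by day interaction, with 1 at an unadjusted p under 0.05 and 0 by voom. That test called 0.0252% of tested genes. With day, averaged over sexes, 3 rose (GP9, ITGB3 and P2RX1) and 1 fell, where 29.9% of tested genes rose and 30.3% fell. In males 2 rose and 1 fell, where 23.7% of tested genes rose and 24.1% fell, and in females 2 rose and 1 fell, where 22.4% rose and 23.2% fell. Calls with day were common in these data, at 60.1% of tested genes in either direction.

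Other genes of thrombocytes were taken from 6 lists: adhesion receptors, agonist receptors, integrin signalling, granule and crosslinking genes, transcription factors and cytoskeleton. Together they held 80 tested genes, the 5 described above included, and names such as GP1BA, GP6, PF4, SELP, FERMT3, GATA1 and NFE2 were not analysed here. The lists, like the 5 genes, were chosen with earlier results of these data known. At day 15, 7 of the 80 were higher in males, where limma called 2.58% of all tested genes higher. Lower in males were 0 of the 80, with 2 at an unadjusted p under 0.05 and 0 by voom. The share of all tested genes called lower is not given here. Of the 73 outside Z and W, 4 were higher, ITGA2B, P2RX1 and GP5 among them. The other 3 of the 7 are on Z: F2RL2, GNAQ and TLN1. Those 3 Z genes were also the 3 called at day 11, where 0 of the 73 outside Z and W were called (3 higher and 1 lower at an unadjusted p under 0.05, and 0 by voom). Of all tested genes outside Z and W, limma called 0.192% higher at day 15 and 0.0852% at day 11. The medians of the 6 lists at day 15 ran from -0.042 for the cytoskeleton to 0.15 for the agonist receptors, on the log2 scale, against -0.012 for all tested genes.

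GP5, the subunit that joins GP9 in the receptor complex for von Willebrand factor, had 1.90, 2.59 and 2.97 FPKM as lowest, median and highest value in day 15 males and 1.61, 1.77 and 2.31 FPKM in day 15 females. Its sex difference at day 15 was 0.42 ± 0.091 (limma adjusted p = 0.00176). The day 11 values were 2.07, 2.35 and 2.84 FPKM in males and 1.83, 2.26 and 2.80 FPKM in females, so the day 15 females stood lowest. GP1BB, a further subunit of that complex, averaged 7.59 FPKM in day 15 males and 7.07 FPKM in day 15 females (difference 0.088 ± 0.12, adjusted p = 0.919). Of the 3 subunits of the complex measured, GP5 alone was called at day 15.

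Of the Z genes, F2RL2, a thrombin receptor, was higher in males by 0.40 ± 0.090 at day 15 (limma adjusted p = 0.00274) and by 0.65 ± 0.090 at day 11 (adjusted p = 5.86e-07). GNAQ, the G protein alpha subunit through which thrombin and ADP receptors signal, was higher by 0.37 ± 0.072 at day 15 and 0.33 ± 0.072 at day 11. TLN1, talin, which switches integrins to their binding form, was higher by 0.21 ± 0.044 at day 15 and 0.19 ± 0.044 at day 11. These 3 were called at both days, out of 7 tested Z genes in the lists. Of the 410 genes that limma called higher in males at day 15, only 27 are placed outside Z and W. The share of all tested Z genes called is not given here, so the 3 of 7 cannot be set against it.

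**Figure D3:**
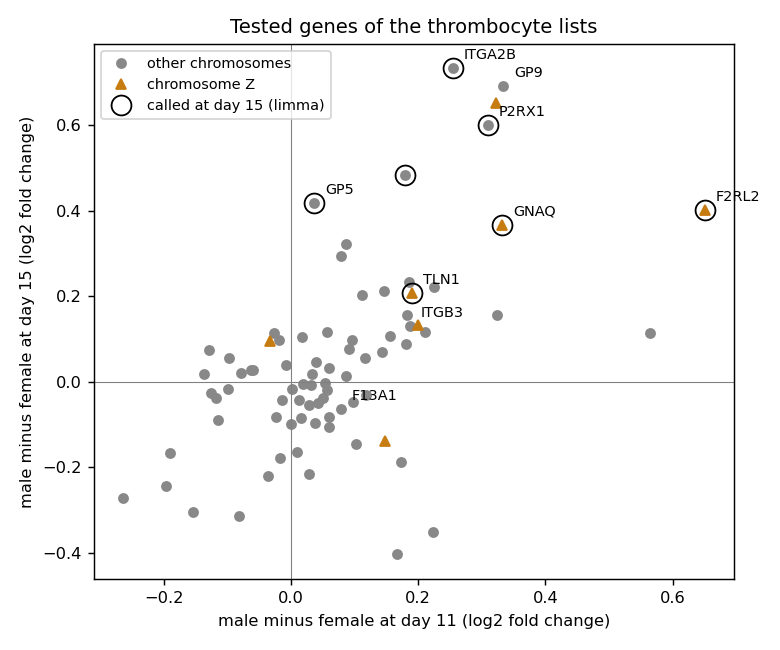
Male minus female log2 fold change at day 15 (vertical axis) against day 11 (horizontal axis) for the 80 tested genes of the thrombocyte lists. Triangles are genes on Z, and rings mark the 7 genes that limma called at day 15. ITGA2B, P2RX1 and GP5 are ringed and lie off Z, and F2RL2, GNAQ and TLN1 are ringed triangles.

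With day, 32 of the 80 genes of the thrombocyte lists rose and 19 fell, averaged over sexes, where 29.9% of all tested genes rose and 30.3% fell. Among the agonist receptors 6 of 10 rose and 3 fell. P2RY1, the ADP receptor that starts shape change, had a median of 26.7 FPKM in day 15 males and 15.7 FPKM in day 11 males and rose by 0.72 ± 0.059 averaged over sexes (limma adjusted p = 1.19e-13). PTGER3, a prostaglandin E receptor, fell by 1.01 ± 0.14 (adjusted p = 6.04e-08).

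Among the granule, eicosanoid and crosslinking genes 8 of 17 rose and 5 fell with day, beside the same 29.9% and 30.3% of all tested genes. PTGS1, the cyclooxygenase that supplies thromboxane synthesis, rose by 1.97 ± 0.083 (limma adjusted p = 2.67e-22), whereas TBXAS1, thromboxane synthase itself, fell by 0.83 ± 0.085 (adjusted p = 5.01e-11). PTGS1 had a median of 116 FPKM in day 15 males and 30.6 FPKM in day 11 males. TBXAS1 had a median of 1.32 FPKM in day 15 males and 2.44 FPKM in day 11 males. Neither gene is restricted to thrombocytes. RUNX1, a transcription factor of megakaryocytes in mammals, rose by 0.95 ± 0.20 (adjusted p = 8.23e-05). It was 1 of 4 transcription factors of 12 that rose, while 1 fell. Of the adhesion receptors 5 of 12 rose and 1 fell, of the integrin signalling genes 5 of 18 rose and 8 fell, and of the cytoskeletal genes 4 of 11 rose and 1 fell. Whether any list's counts differ from those shares of all genes was not tested.

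Markers of the other cells in the membrane were set beside these results. Of 16 tested erythroid markers, limma called 0 higher and 1 lower in males at day 15, the embryonic globin HBZ (-1.33 ± 0.33, adjusted p = 0.00883), which voom on recovered reads did not call. Of all tested genes, limma called 2.58% higher in males at day 15, and 0.192% of those outside Z and W. The share called lower is not given here, so the 1 lower call has no such share beside it. In either direction, limma called 510 to 593 of the 15880 tested genes when a library was left out. The erythroid markers had a median difference of -0.15 at that day, against -0.012 for all tested genes. The summed FPKM of the 18 erythroid markers in the files was 11907 to 48707 in day 15 males and 16358 to 39099 in day 15 females. Globins took a median of 3.33% of all FPKM in day 15 males, 4.36% in day 15 females, 4.45% in day 11 males and 4.91% in day 11 females.

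Of 26 leukocyte and macrophage markers, 0 were called between the sexes at day 15 by limma (1 higher and 1 lower at an unadjusted p under 0.05, 0 by voom), with sums of 311 to 473 FPKM in day 15 males and 317 to 501 FPKM in day 15 females. Of 21 endothelial markers, 0 were called (0 higher and 1 lower at an unadjusted p under 0.05, 0 by voom), with sums of 1404 to 1924 FPKM in day 15 males and 1051 to 1785 FPKM in day 15 females. Beside these counts, limma called 2.58% of all tested genes and 0.192% of those outside Z and W higher in males at day 15. The share called lower is not given here. At such shares lists of 26 and 21 genes would hold few calls, so the counts of 0 do not set these lists apart. The endothelial list shares VWF, TAL1 and LMO2 with the thrombocyte lists. In all 3 lists no marker stayed under 0.1 FPKM in all libraries. The part of these cells in the sex differences of ITGA2B and P2RX1 was not tested.

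Between days, 14 of 26 leukocyte and macrophage markers fell, 3 rose and 9 were not called, where 30.3% of all tested genes fell and 29.9% rose. Their median was -0.46 (log2), against 0.00059 for all tested genes. TIMD4, a macrophage receptor for dying cells, fell by 2.64 ± 0.20, and CSF1R, the receptor for macrophage growth factors, fell by 1.45 ± 0.10. CSF1R had a median of 7.35 FPKM in day 15 males and 6.22 FPKM in day 15 females, against 19.1 FPKM in day 11 males and 15.6 FPKM in day 11 females. The summed level of the list overlapped between days, at 311 to 473 FPKM in day 15 males and 317 to 501 FPKM in day 15 females, against 321 to 485 FPKM in day 11 males and 359 to 533 FPKM in day 11 females. The part of leukocytes in the fall of F13A1 was not tested. Of the endothelial markers, 11 of 21 rose and 4 fell with day, beside the same shares of all tested genes. Of the erythroid markers 4 of 16 rose and 5 fell, which is near those shares, and HBE, HBBR and HBZ, globins of the embryo's early red cells, fell most.

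Whether the 5 genes rose and fell together from embryo to embryo was asked on deviations from the 4 group means. Mean differences by day or sex therefore do not enter. Trends with embryo number within a group stay in these deviations. Within day 11, limma called 15.8% of tested genes rising and 17.3% falling with it. Values with embryo number removed are given for the pairs only, not for the most alike genes or marker lists. Of the 10 pairs, GP9 with ITGA2B had the highest correlation, with a Pearson r of 0.48 (permutation p = 0.00233) and a Spearman rho of 0.52 (permutation p = 0.00112) over 40 libraries. Without the 2 libraries farthest from the median of GP9, r was 0.51. Within groups r was 0.50 in day 15 males, 0.62 in day 15 females, 0.62 in day 11 males and 0.25 in day 11 females, each over 10 embryos. Among all 15879 other tested genes, ITGA2B ranked 75 in likeness to GP9 and GP9 ranked 202 in likeness to ITGA2B. The limma test across all genes did not call the pair (adjusted p = 0.289 with GP9 and 0.0953 with ITGA2B as the predictor), and it called 0.0063% of tested genes with either.

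The other 9 pairs had an r between -0.12 and 0.25 and permutation p-values of 0.132 to 0.948. ITGA2B with ITGB3, the subunits of one receptor, had an r of 0.053 (permutation p = 0.747, rho 0.12, 0.084 without the 2 farthest libraries). Within groups that r was -0.13 in day 15 males, 0.38 in day 15 females, 0.29 in day 11 males and -0.17 in day 11 females. ITGA2B with P2RX1, which shared the sex difference at day 15, had an r of 0.013 (permutation p = 0.936, rho -0.026, 0.095 without the 2 farthest). It was 0.33 in day 15 males and -0.61 in day 15 females. P2RX1 with F13A1 had an r of -0.010 over all libraries, with -0.22 in day 15 males, -0.76 in day 15 females, 0.71 in day 11 males and 0.17 in day 11 females. Within a group, embryos with more ITGA2B tended to have more GP9, and no other pair had a permutation p under 0.05 over all libraries.

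**Figure D4:**
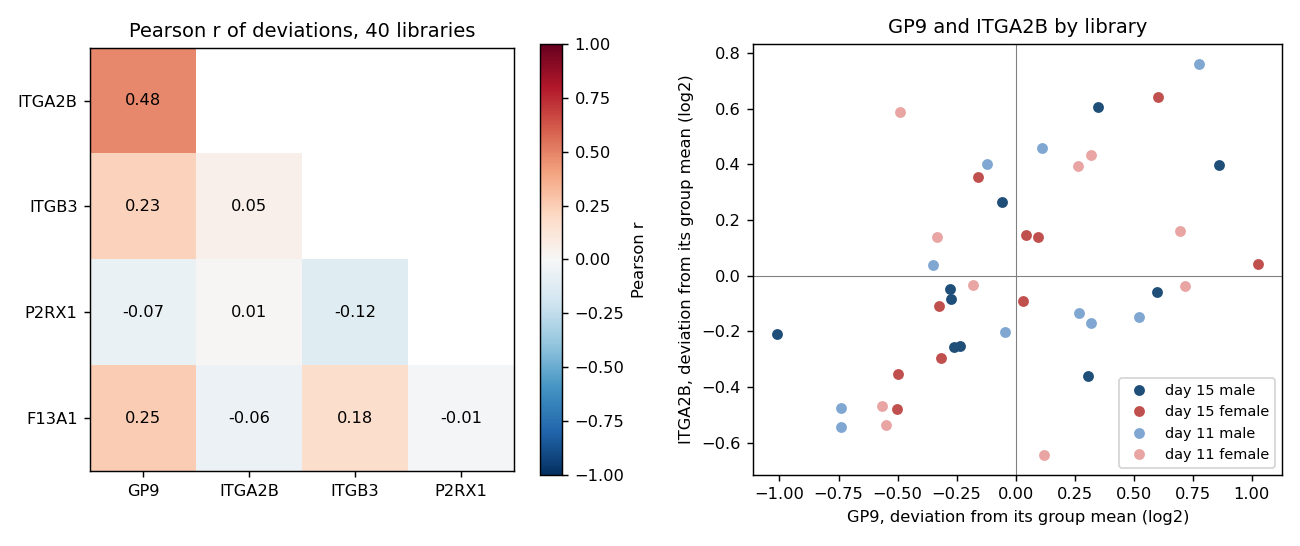
Left: Pearson r between the thrombocyte genes over 40 libraries, on deviations from group means of log2 values, in which GP9 with ITGA2B (0.48) has the highest r. Right: the deviations of ITGA2B (vertical, log2) against GP9 (horizontal, log2), one point per embryo, by day and sex.

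The genes most like each member were sought among the tested genes that carry a name, by the same r. For F13A1 they were LY86, a lymphocyte and macrophage antigen, with an r of 0.67 (limma adjusted p = 0.0420) and LAPTM5, a lysosomal protein of blood cells, with an r of 0.65 (adjusted p = 0.0530), and limma called 0.0063% of tested genes with F13A1. LY86 is the neighbour of F13A1 on chromosome 2, at 64889269 to 64914270 on the minus strand, with 95165 bases and 0 genes between them. Both also fell with day: LY86 averaged 6.86 ± 2.10 FPKM in day 15 males, 7.47 ± 2.18 in day 15 females, 12.1 ± 3.10 in day 11 males and 10.2 ± 3.16 in day 11 females (SD, n = 10 each). The leukocyte and macrophage markers, LY86 and LAPTM5 among them, had a median r of 0.29 with F13A1, with 22 of 26 positive. For all tested genes the median was 0.0062. With ITGB3 the same markers had a median r of 0.18, where 22 of 26 were positive too. Their median r was 0.015 with GP9 (13 positive), -0.016 with ITGA2B (12 positive) and -0.22 with P2RX1 (5 positive).

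For ITGB3 the most alike genes were NOV, a secreted matrix-associated protein, with an r of 0.73 (limma adjusted p = 0.00143), SEC61A2 (0.70) and ACTN1 (0.68), the actin crosslinker alpha-actinin, followed by ALG12 and EHD3. The cytoskeletal list, ACTN1 included, had a median r of 0.39 with ITGB3 and 10 of 11 positive. The median for all tested genes was 0.0028. That 0.39 was the highest median of any thrombocyte list with any member. The same list had -0.21 with P2RX1 (2 of 11 positive), 0.0089 with GP9, 0.010 with ITGA2B and 0.077 with F13A1. The adhesion receptors had medians of 0.018 with GP9, -0.15 with ITGA2B, 0.047 with ITGB3, 0.016 with P2RX1 and 0.15 with F13A1. Medians of the remaining thrombocyte lists ran from -0.18 to 0.19. Actin cytoskeleton genes are shared with muscle, and ACTA2, the smooth muscle actin, held here among the chorioallantoic membrane markers, had an r of 0.60 with ITGB3. It had the highest r of the 14 tested markers of that list, whose median was -0.18. The part of muscle in these values was not tested. ITGB3 had 0.409% of tested genes called with a positive and 0.183% with a negative slope.

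For P2RX1 they were DUSP7, a MAP kinase phosphatase, with an r of 0.67 (limma adjusted p = 0.0132), DNAJC18 (0.66), GLCCI1 (0.66), SPERT (0.65) and WFDC1 (0.65). P2RX1 had 0.409% of tested genes called with a positive and 0.416% with a negative slope. All 16 erythroid markers had a positive r with P2RX1, with a median of 0.34 and a highest value of 0.47 for SLC4A1, the red cell anion exchanger. All 16 were positive with GP9 too, with a median of 0.29. Over all tested genes, r had a median of 0.00053 and a 95th percentile of 0.37 with P2RX1. With GP9 these were 0.0034 and 0.34. Both erythroid medians lay under the 95th percentile, but that percentile is of single genes and is no measure for the median of a list. Whether the list medians differ from those of other lists of this size was not tested. The median of the erythroid markers was 0.022 with ITGA2B, 0.0079 with F13A1 and -0.089 with ITGB3. The endothelial markers had a median r of 0.26 with P2RX1 and 0.13 with ITGA2B. Their highest r with P2RX1 was 0.56, for ENG. Among the chorioallantoic membrane markers the highest was 0.53, for ATP6V0D2, with a list median of -0.088. Both genes lay above the 99th percentile of all tested genes with P2RX1 (0.49), and SLC4A1 lay under it. The part of red cells or vessels in these values was not tested, and libraries share their cells, depth and normalisation across all genes compared.

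For GP9 the most alike were ARIH1 (0.66), WDCP (0.61), MDFIC (0.61), TREM-B1 (0.61) and WIPI1 (0.60), with adjusted p-values of 0.123 to 0.182 by limma. For ITGA2B they included MRPL39 (0.63), MBIP (0.62), SORD (0.62) and ING1 (0.62), each with an adjusted p of 0.0757. The 1 gene that limma called with GP9 and the 1 called with ITGA2B carry no name in the annotation and were picked out after their values were seen: ENSGALG00000014722 on chromosome 1 with GP9 (r = 0.69, adjusted p = 0.0343) and ENSGALG00000040260 on chromosome 33 with ITGA2B (r = 0.70, adjusted p = 0.00835). The highest mean r over the 4 receptor genes (GP9, ITGA2B, ITGB3 and P2RX1) was 0.37, for BCAP29, and 0.35 for QPCT.

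**Figure D5:**
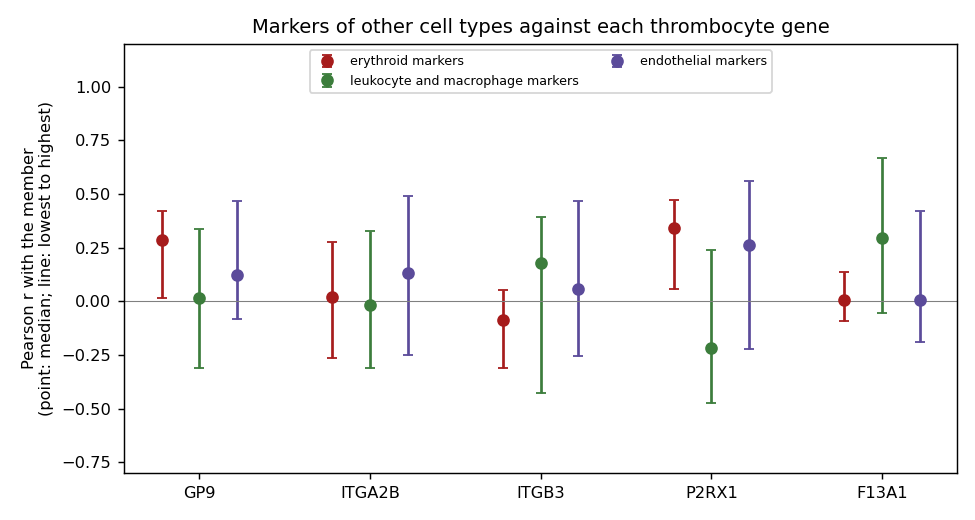
Pearson r of erythroid, leukocyte and macrophage, and endothelial markers with each thrombocyte gene over 40 libraries, on deviations from group means. Points are medians over the markers, and lines run from the lowest to the highest marker. Leukocyte markers have a median of 0.29 with F13A1, and erythroid markers 0.34 with P2RX1.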

How the data were processed

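Whole chorioallantoic membranes of 40 embryos were sequenced. Per the labels' protocols, a NEBNext Ultra kit was used for library preparation. HISAT2, HTSeq and GRCg6a are named in the submitters' processing notes; neither versions nor the strand setting is given there, so reads of overlapping genes on opposite strands could not be separated. The authors deposited a table that is named for raw counts but holds FPKM values, as its steps show (RPKM cannot be told apart). The values convert to whole reads, within 0.01 reads, in 100% of 24356 annotated genes, with depths of 28.3 to 49.2 M reads. Counting errors from those reads cover counting only.

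FPKM were scaled by a trimmed mean of log ratios (30% and 5% trimmed). The filter kept the 15880 of 26152 genes that reached 0.5 FPKM in 10 or more libraries. The model, one mean per group, was fitted on log2(scaled FPKM + 0.1) with limma 3.58.1 (R 4.3.3, intensity trend, robust moderation), which understates changes of low genes; it was tested on simulated data. The same model was run as voom on the recovered reads, an alternative chosen after seeing the data. Correlations used 100000 permutations within groups, two-sided (SciPy 1.17.1, numpy 2.4.6, pandas 2.3.3, Python 3.11.15), over 10 pairs, with no adjustment over the pairs. All 40 columns were matched to samples, 0 were left unmatched and 0 pairs of libraries were identical. The columns for male 100 and female 102 of day 15 carry only the last digits of the numbers.

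The genes named are the 5 members, up to 4 called genes per list and contrast with the largest change and a mean log2 level of 0 or more, and the genes most like each member; GP1BB, ITGAV, CA2 and SLC4A1, and the pick among the genes so listed, were chosen after their values were seen. Results for a few genes that this rule took are not reported here. Members and lists were chosen with earlier results of these data known. Alternatives covered scaling, pseudocount, filter, moderation, library weights, embryo number, the groups fitted and each library left out.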

Additional observations from a re-analysis of the deposited data

Results flagged for a closer look

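In 1 of 24 sets of 10 values checked, a single embryo stood apart from its group. The ratio of ITGA2B to ITGB3 was 2.78 in male 2 of day 11, and the other 9 day 11 males had ratios of 1.09 to 1.92. That embryo had the highest ITGA2B (51.3 FPKM) and the highest GP9 (2.56 FPKM) of its group, while its ITGB3 was 18.5 FPKM and its P2RX1 9.75 FPKM, within the range of the others. The check was made on untransformed values and not on the log2 ratios used in the ratio test. Chance alone flags about 1 group in 20, a rate that assumes normally distributed values.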

How the results depend on the processing

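ITGA2B and P2RX1 were called higher in males at day 15 under every alternative and every left-out library (ITGA2B 0.67 to 0.80, adjusted p up to 0.00806; P2RX1 0.53 to 0.67, adjusted p up to 0.0295), and the day calls of GP9, P2RX1 and F13A1 were kept too. GP9 at day 15 passed the threshold with library weights (0.70), with embryo number as a covariate (0.72) and with voom (0.72). It did not pass under the other 8 of 11 alternatives (limma adjusted p up to 0.118). With a library left out it ran from 0.60 to 0.81 (adjusted p = 0.0223 to 0.183). GP9 averaged over days lost its call with no filter on low values (0.51), with library weights (0.47) and with voom (0.53), and ran from 0.46 to 0.57 with a library left out. With library weights F13A1 turned to -0.071 at day 11, to -0.047 averaged over days and to 0.049 in the interaction, and ITGB3 to 0.042 in the interaction; none was called. With a library left out, F13A1 averaged over days ran from -0.031 to 0.051, the ITGB3 interaction from -0.11 to 0.0085, the day difference of ITGB3 from 0.18 to 0.27 in females and 0.12 to 0.24 in males, and that of ITGA2B in males from 0.25 to 0.40. Genes called in the interaction numbered 8 with a pseudocount of 1, 8 with no filter, 2 with at least 1 FPKM in 20 libraries and 2 with voom, against 4.

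Among the pairs, those near 0 changed sign and none was called. By Spearman's rho ITGA2B with P2RX1 was -0.026, ITGA2B with F13A1 0.012 and P2RX1 with F13A1 0.0071. Unscaled, ITGA2B with ITGB3 was -0.014 and with P2RX1 -0.046. With embryo number removed, GP9 with P2RX1 was 0.038, ITGA2B with P2RX1 -0.013 and P2RX1 with F13A1 0.020, and without female 83 of day 15 the last was 0.039. GP9 with ITGA2B stayed between 0.46 and 0.52. The causes were not tested. No paired analysis was possible because no embryo number is shared between groups. GP9, at 29 to 275 reads, is the member that depth limits most.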
